A study of Sus scrofa with 8 samples.

Results

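The 10 genes described here are members of the ADAMTS family of secreted metalloproteases: ADAMTS16, ADAMTS18, ADAMTS2, ADAMTS14, ADAMTS1, ADAMTS4, ADAMTS5, ADAMTS9, ADAMTS15 and ADAMTS12. They were found by their Ensembl gene names among the 22516 genes of the table, and all 10 were measured. ADAMTS16 was selected on its lower level in the androstenone libraries, and the others were chosen by family name with their values in these libraries known, so the values of that contrast are given for the members as a description, with no test. RNA-seq was made on the olfactory epithelium (OE) of 4 sows aged 8 months and in estrus, crossbred from Landrace boars and Rongchang sows. The nasal cavity of 2 sows was sprayed with Boarmate, a commercial product whose main active component is the boar pheromone androstenone, and the OE was taken 30 min later. The 2 control sows received no solution. The left and the right OE were separate libraries, which gave 4 control and 4 androstenone libraries, but the sources used here do not say which libraries shared a sow.

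ADAMTS proteases are zinc enzymes that are secreted into the extracellular matrix, where a disintegrin-like domain and thrombospondin repeats help to place them on their substrates. They are made with a propeptide that furin-like convertases remove, and TIMP3 is the best known inhibitor of several of them. Family members differ in what they cut. ADAMTS1, ADAMTS4, ADAMTS5, ADAMTS9 and ADAMTS15 cut large proteoglycans such as aggrecan and versican, ADAMTS2 and ADAMTS14 remove the amino-terminal propeptide of fibrillar procollagens, ADAMTS12 can cut cartilage oligomeric matrix protein, and ADAMTS16 and ADAMTS18 are close relatives of each other whose substrates are less well known.

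Levels of a single gene across libraries are given as CPM, counts scaled to a common library total (counts per 1e6) after TMM scaling, which corrects for a few very abundant genes. Control 1 held 4178330 counts and the other 7 libraries held 81580146 to 100685566, so the control 1 values carry the widest counting error. The 10 most abundant genes of control 4 made up 29.4% of its total, against 6.57% to 9.02% elsewhere, and its summed osteoblast and bone markers reached 23562 CPM against 220 to 915 in the other 7 libraries. Control 3, androstenone 1 and androstenone 2 were alike in another way. Their summed respiratory ciliated cell markers were 2093, 1820 and 2045 CPM against 466 to 1011 in the other 5 libraries, while their summed endothelial markers were 58.6, 99.996 and 58.9 CPM against 245 to 537. Of the olfactory neuron markers, OMP and CNGB1 were not matched, GNG13 and RTP1 were at or below 0.205 and 0.109 CPM, and CNGA2 ran from 0.737 to 12.2 CPM. Other genes of that list were higher, with ADCY3 at 18.0 to 43.3 CPM and GNAL at 1.46 to 22.0 CPM. STOML3 was at 224, 216 and 215 CPM in control 3, androstenone 1 and androstenone 2, and at 48.8 to 92.9 CPM elsewhere. ANO2 was at 19.0, 52.4 and 19.3 CPM in those libraries and at 159 to 292 CPM elsewhere. The list summed to 290 to 401 CPM in each library, a sum in which STOML3 and ANO2 varied in opposite directions. In bulk tissue, fewer cells of a type and less RNA per cell cannot be told apart.

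ADAMTS16 was lower in all 4 androstenone libraries than in any control library. Its level was 7.40, 2.66, 5.56 and 3.70 CPM in control 1 to control 4, and 0.995, 0.851, 0.989 and 1.11 CPM in androstenone 1 to androstenone 4. The androstenone libraries lay close together and the control libraries were spread over a wider range, with control 1 highest and control 2 lowest. The means were 4.83 ± 2.09 CPM (SD, n = 4) and 0.987 ± 0.108 CPM (SD, n = 4), and the log2 fold change, androstenone over control, was -2.27 with a standard error of 0.36. ADAMTS16 lies at chr16:76326718-76491050 of Sscrofa11.1. The value of control 1 rests on 36 counts, whose 95% Poisson interval spans 5.18 to 10.2 CPM and covers counting error only.

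ADAMTS16 is described here within the libraries rich in ciliated cell markers and within the others. The gene was selected on this difference, so these values are no support for it. The part of cell makeup in its level was not tested. Control 3 was the only control rich in ciliated cell markers. It had 5.56 CPM against 0.995 and 0.851 CPM in androstenone 1 and androstenone 2. Among the other 5 libraries, the controls had 2.66 to 7.40 CPM against 0.989 and 1.11 CPM in androstenone 3 and androstenone 4. Control 4, the library rich in bone transcripts, was neither the highest nor the lowest control, and the log2 fold change without it was -2.38 (SE 0.37). Leaving out each library in turn gave -2.47 (without control 2) to -2.01 (without control 1). Each sow gave a left and a right library, so these fits do not measure the spread between sows.

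**Figure D1:**
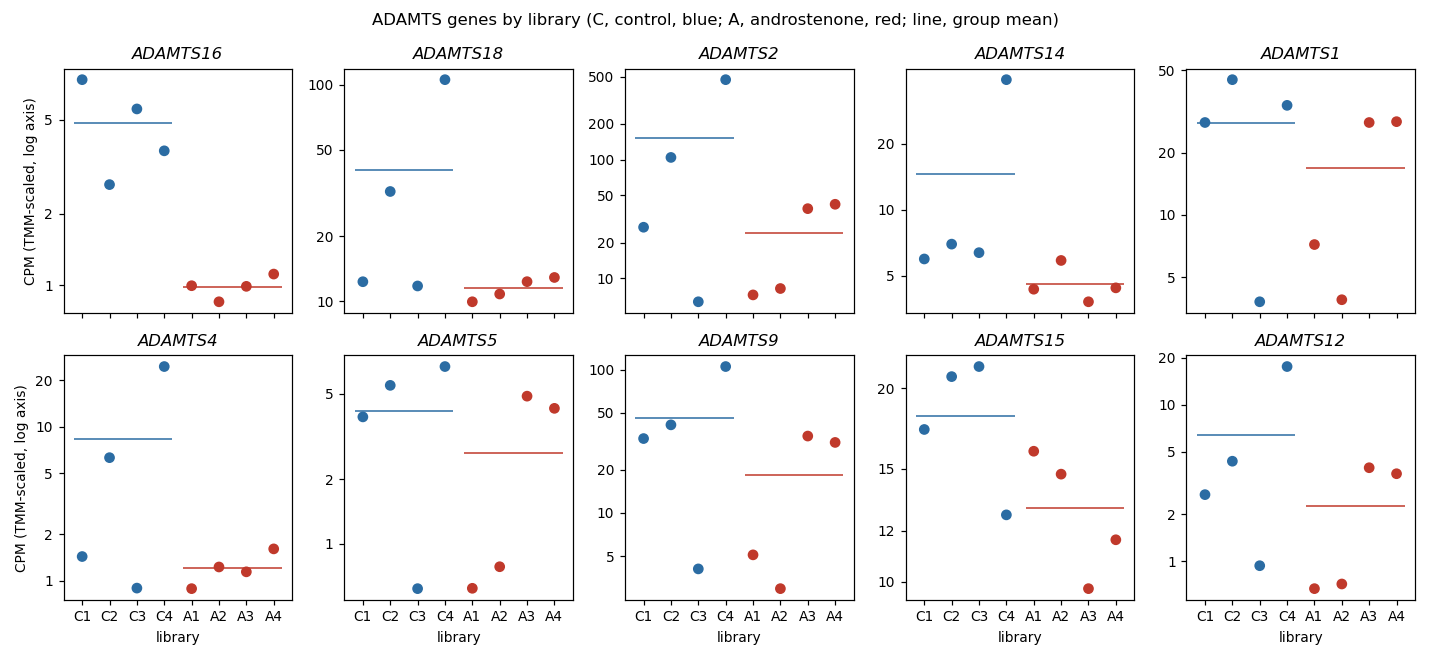
Level of the 10 ADAMTS genes in each library, in TMM-scaled CPM on a log axis. Blue points are control 1 to control 4 (C1 to C4), red points are androstenone 1 to androstenone 4 (A1 to A4), and lines are group means. For ADAMTS16 the 4 androstenone libraries sit between 0.851 and 1.11 CPM, below all controls, while control 4 stands highest for ADAMTS2, ADAMTS4, ADAMTS5, ADAMTS9, ADAMTS12, ADAMTS14 and ADAMTS18.

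ADAMTS18, the nearest relative of ADAMTS16, had a different profile over the libraries. Its level was 12.3, 32.2, 11.8 and 106 CPM in control 1 to control 4 and 9.96, 10.8, 12.3 and 12.9 CPM in androstenone 1 to androstenone 4. The groups overlapped, since control 1 and control 3 stood at the level of the androstenone libraries and only control 2 and control 4 stood above them. The log2 fold change was -1.82 (SE 0.68) with all libraries and -0.71 (SE 0.37) without control 4.

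The procollagen N-proteinases ADAMTS2 and ADAMTS14 were both highest in control 4, by different margins over the rest. ADAMTS2 was at 26.9, 104, 6.34 and 470 CPM in control 1 to control 4 and at 7.25, 8.20, 38.6 and 42.0 CPM in androstenone 1 to androstenone 4. It spanned 74.1-fold from control 3 to control 4, and the lowest 3 libraries were those rich in ciliated cell markers, whichever group they belonged to. Its log2 fold change was -2.66 (SE 1.23), and -0.93 (SE 0.98) without control 4.

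ADAMTS14 was at 5.96, 6.96, 6.37 and 39.2 CPM in control 1 to control 4 and at 4.34, 5.86, 3.80 and 4.40 CPM in androstenone 1 to androstenone 4. The groups did not overlap, but the gap between the lowest control (control 1, 29 counts, 95% Poisson interval 3.99 to 8.56 CPM) and the highest androstenone library was smaller than that counting interval. The log2 fold change was -1.68 (SE 0.65), and -0.49 (SE 0.24) without control 4.

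The proteoglycan-cutting members fell into several profiles. ADAMTS1 was at 27.9, 44.97, 3.81 and 33.8 CPM in control 1 to control 4 and at 7.19, 3.90, 27.9 and 28.2 CPM in androstenone 1 to androstenone 4. ADAMTS9 was at 33.1, 41.2, 4.07 and 105 CPM in the controls and at 5.10, 2.96, 34.4 and 31.1 CPM in the androstenone libraries, in the same order. Both genes were low in control 3, androstenone 1 and androstenone 2 and several times higher in the other 5 libraries, and for both the groups overlapped. The log2 fold change was -0.72 (SE 0.81) for ADAMTS1 and -1.32 (SE 1.01) for ADAMTS9. Without control 4 that of ADAMTS9 was -0.50 (SE 1.02).

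ADAMTS5 had the same low libraries as ADAMTS1, at 0.616 to 0.779 CPM there and 3.90 to 6.71 CPM in the other 5 libraries, with a log2 fold change of -0.66 (SE 0.86). ADAMTS1 and ADAMTS5 are neighbours on chromosome 13, 67061 bp apart in Sscrofa11.1 with 1 gene between them. ADAMTS12, on chromosome 16 like ADAMTS16, was also lowest in these libraries, at 0.670 to 0.939 CPM, and highest in control 4, at 17.6 CPM. Its log2 fold change was -1.52 (SE 0.95), and -0.24 (SE 0.81) without control 4.

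ADAMTS4, an aggrecan-cutting enzyme, was at 1.44, 6.30, 0.897 and 24.6 CPM in control 1 to control 4 and at 0.890, 1.23, 1.14 and 1.61 CPM in androstenone 1 to androstenone 4. Only control 2 and control 4 stood above the androstenone libraries, as for ADAMTS18, and the control 1 value rests on 7 counts (95% Poisson interval 0.578 to 2.96 CPM). Its log2 fold change was the most negative of the members, at -2.79 (SE 0.96), and was -1.28 (SE 0.64) without control 4. ADAMTS15, which cuts aggrecan and versican, varied least among the members over the controls. It was at 17.3, 20.9, 21.6 and 12.7 CPM in control 1 to control 4 and at 15.96, 14.7, 9.75 and 11.6 CPM in androstenone 1 to androstenone 4. Here control 4 was the lowest control and the only one within the androstenone range, and the log2 fold change was -0.48 (SE 0.24), or -0.62 (SE 0.22) without it.

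**Figure D2:**
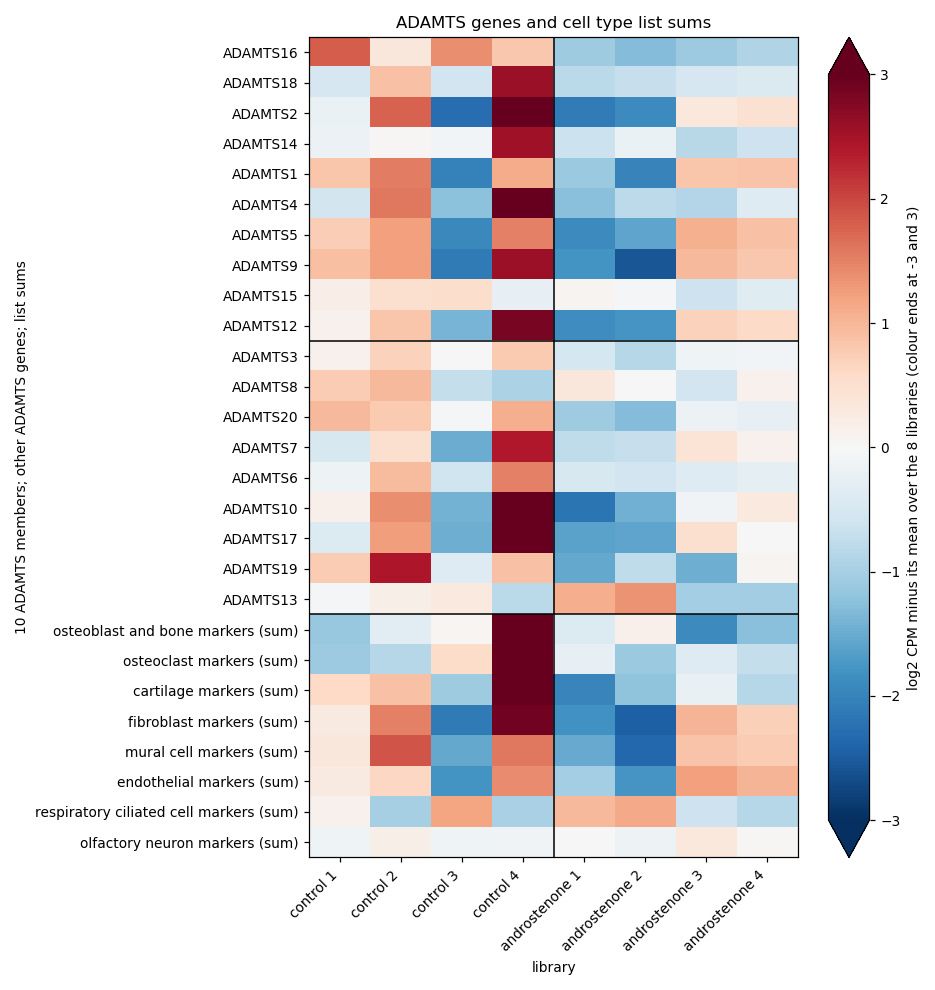
Each gene's log2 CPM minus its mean over the 8 libraries, for the 10 members, the 9 other ADAMTS proteases and the summed CPM of cell type marker lists, with libraries in columns and a vertical line between the groups. Red is above and blue below the mean, with colours capped at -3 and 3. ADAMTS16 and ADAMTS20 are red or pale in the controls and blue or pale in the androstenone libraries, while ADAMTS1, ADAMTS5 and ADAMTS9 are blue in control 3, androstenone 1 and androstenone 2, as are the endothelial, mural cell and fibroblast sums.

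All 10 members had a log2 fold change below 0, as did 51.8% of the 21318 genes tested with edgeR's quasi-likelihood test. At the study's cutoff (unadjusted p below 0.05 with a log2 fold change of 1 or more in either direction), 4 of the 10 members were lower in the androstenone libraries and 0 were higher, against 4.38% and 2.04% of all genes tested. These 4 were ADAMTS4, ADAMTS14, ADAMTS16 and ADAMTS18, and the place of ADAMTS16 among them follows from its selection on this contrast, so that nothing is read from the count. The paper, which names edgeR but not the test, reports more genes in both directions than the 934 lower and 434 higher found here. With edgeR's likelihood ratio test 1399 were lower (6.56%) and 579 higher, and ADAMTS2 joined the members past the cutoff. Groups did not overlap, with androstenone lower, for ADAMTS14 and ADAMTS16, 2 of the 10 members, against 2.64% of all genes, and 0 members lay wholly higher, against 3.89%. Leaving ADAMTS16 aside, 3 of 9 members were lower at the cutoff, 1 of 9 (ADAMTS14) did not overlap, and the median log2 fold change was -1.52. The median log2 fold change was -1.60 over the members and -0.02 over all genes tested.

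Of the libraries left out one at a time, control 4 changed the number of members past the cutoff most. Without it only ADAMTS16 did, the members' median log2 fold change was -0.61, and all 10 were still below 0. Leaving out androstenone 1 or androstenone 3 left ADAMTS4 and ADAMTS16 past the cutoff. Leaving out androstenone 2 lost ADAMTS18 alone, leaving out androstenone 4 lost ADAMTS14 alone, and leaving out control 1 or control 3 added ADAMTS2. Of all genes tested, 3.71% were lower at the cutoff without control 4. Over the single libraries left out, this share ran from 2.66% (without androstenone 1) to 6.89% (without control 3). ADAMTS16, which was selected on this difference, was past it in each of these 8 fits, which is a description and no support for the difference. After Benjamini-Hochberg adjustment no gene of the 21318 was below 0.05 with the quasi-likelihood test or limma voom, while 2415 had an unadjusted p below 0.05 with the former. Adjusted p was below 0.05 for 200 genes with edgeR's likelihood ratio test, 157 with its exact test and 670 with DESeq2. These included 1, 1 and 2 of the members, and DESeq2 gave no p for ADAMTS14. ADAMTS16, selected on this contrast, had the smallest p of the members with each of these tests, so nothing is read from these counts. Each group held only 2 sows, so the p-values measure the spread between libraries.

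**Figure D3:**
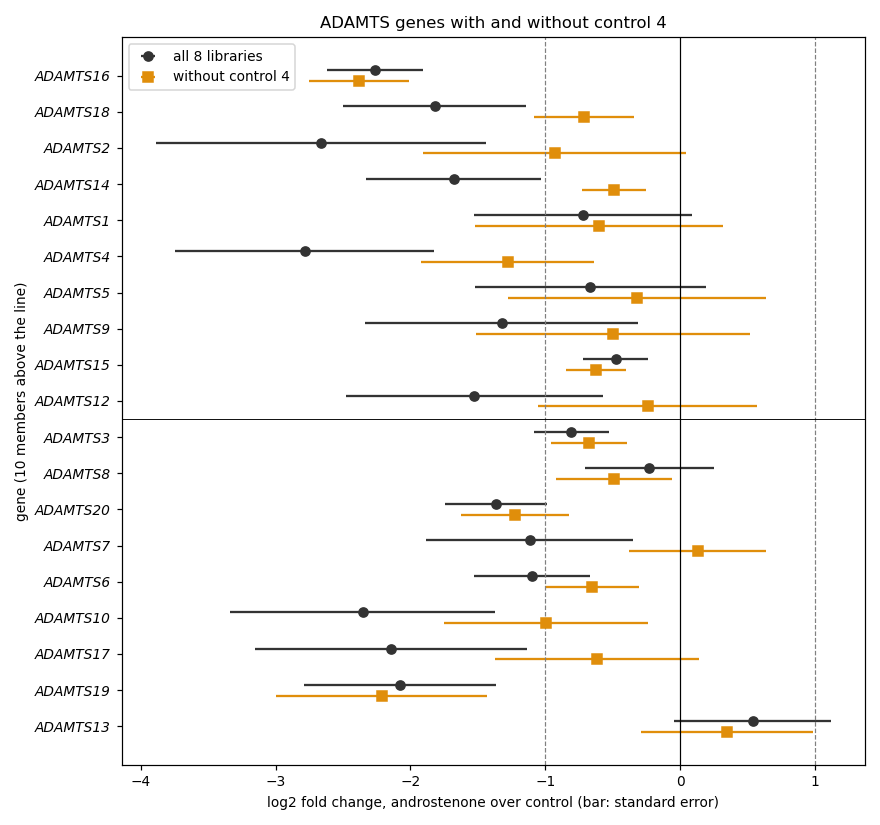
Log2 fold change, androstenone over control, of the 10 members (above the line) and the 9 other ADAMTS proteases (below it), with all 8 libraries (black circles) and without control 4 (orange squares). Bars are standard errors and dashed lines mark -1 and 1. ADAMTS16 stays at -2.27 and -2.38 and ADAMTS20 at -1.36 and -1.23, while ADAMTS2, ADAMTS4, ADAMTS14 and ADAMTS18 move towards 0 without control 4. ADAMTS16 was selected on this contrast, so its place here is a description and no support for the difference.

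The other 9 ADAMTS proteases in the table gave the rest of the family. With edgeR's quasi-likelihood test, 4 of the 9 were past the cutoff and lower (background 4.38%), 0 were higher, and their median log2 fold change was -1.12. ADAMTS20, which cuts versican and is known for its part in pigment cell development, was at 4.93, 4.37, 2.42 and 5.35 CPM in control 1 to control 4 and at 1.20, 1.03, 2.24 and 2.12 CPM in androstenone 1 to androstenone 4. The androstenone libraries were all below the controls, although control 3 exceeded androstenone 3 by little. Its log2 fold change was -1.36 (SE 0.38, adjusted p = 0.393 with edgeR), and -1.23 (SE 0.40) without control 4. ADAMTS20 was past the cutoff with each single library left out, which is a description, since it was named for its small p in this contrast.

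ADAMTS10 and ADAMTS6, which act on fibrillin microfibrils, were past the cutoff with all libraries, at log2 fold changes of -2.35 (SE 0.98) and -1.10 (SE 0.43) and adjusted p of 0.434 and 0.417 with edgeR. Without control 4 these were -0.99 (SE 0.76) and -0.66 (SE 0.35), neither past the cutoff. Without control 2, androstenone 1, androstenone 2 or androstenone 3 neither was past it either, and ADAMTS6 was also lost without androstenone 4. ADAMTS19 had a log2 fold change of -2.08 (SE 0.71, adjusted p = 0.416 with edgeR) on levels of at most 0.655 CPM, and was lost without control 2 (-1.17). Groups also did not overlap for ADAMTS3, a procollagen N-proteinase related to ADAMTS2, which was named after its values were seen. ADAMTS3 was at 9.24, 13.7, 8.41 and 14.5 CPM in the controls and at 5.84, 4.70, 7.75 and 7.97 CPM in the androstenone libraries, with a log2 fold change of -0.81 (SE 0.28). Its relatives ADAMTS2 and ADAMTS14 reached their highest level in control 4 by a wide margin, whereas ADAMTS3 was nearly as high in control 2.

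The profile of ADAMTS16 over the 8 libraries was compared with that of 13449 genes with a symbol and a mean of at least 1 CPM, by the mean absolute difference of log2 CPM after centring each gene on its own mean. The median of this difference was 1.15. The nearest genes were INHBB, a subunit of activins and inhibins (0.321), NOS2, the inducible nitric oxide synthase (0.372), MPIG6B, an inhibitory receptor of the megakaryocyte lineage (0.376), NAT8L, which makes N-acetylaspartate (0.439), and PLEKHB1, a pleckstrin homology domain protein (0.454). In each of them the androstenone libraries were below the controls, which the choice by likeness to ADAMTS16 favours. INHBB was at 25.7, 12.2, 25.3 and 8.496 CPM in control 1 to control 4 and at 4.87, 4.27, 6.99 and 5.96 CPM in androstenone 1 to androstenone 4. NAT8L was at 68.4, 29.0, 69.9 and 14.8 CPM in the controls and at 10.03, 5.10, 9.10 and 7.40 CPM in the androstenone libraries. Like ADAMTS16, both were higher in control 1 and control 3 than in control 2 and control 4, which the choice by likeness also favours. MPIG6B and PLEKHB1 shared this order. NOS2 did not, at 10.5, 6.95, 6.55 and 6.93 CPM in control 1 to control 4.

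By the same measure, the family was spread over nearly the whole list. ADAMTS20 ranked 20 (0.573) and ADAMTS3 ranked 205 (0.774) among the 13449 genes. Of the other members, ADAMTS15 ranked 674, ADAMTS14 ranked 1297 and ADAMTS18 ranked 3912. The remaining 6 members ranked from 10324 (ADAMTS4) to 13207 (ADAMTS2), farther from ADAMTS16 than most genes. All of these profiles share the same 8 libraries, and the ranks are a description.

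To compare levels between genes, the deposited TPM values were used, which are scaled for transcript length. In the controls the order by mean TPM was ADAMTS2 (29.2 ± 38.3), ADAMTS18 (17.3 ± 16.5), ADAMTS9 (9.53 ± 7.62), ADAMTS1 (8.14 ± 5.39), ADAMTS14 (5.13 ± 4.97), ADAMTS15 (4.64 ± 1.42), ADAMTS4 (3.00 ± 3.65), ADAMTS16 (1.57 ± 0.774), ADAMTS12 (0.990 ± 1.04) and ADAMTS5 (0.968 ± 0.572), each as mean TPM ± SD (n = 4). No neighbours in this order were apart, since the ranges of their 4 libraries overlapped for each pair. In the androstenone libraries ADAMTS18 came highest (5.01 ± 0.738 TPM, SD, n = 4), followed by ADAMTS2 (4.91 ± 3.93), and ADAMTS16 came lowest (0.291 ± 0.0376). Here 2 pairs of neighbours were apart. ADAMTS15 was at or above 2.26 TPM where ADAMTS14 was at or below 2.12 TPM, and ADAMTS14 was at or above 1.36 TPM where ADAMTS5 was at or below 1.07 TPM.

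The 10 members together made 40.8, 79.2, 20.2 and 182 TPM in control 1 to control 4 and 14.3, 14.6, 33.9 and 36.4 TPM in androstenone 1 to androstenone 4. The summed level was lowest in androstenone 1, androstenone 2 and control 3 and highest in control 4, so the groups overlapped. ADAMTS2 made 46.6% of the summed TPM in control 4 and 7.16% in control 3. ADAMTS15 made 28.1%, 24.8% and 23.5% in control 3, androstenone 1 and androstenone 2, and 1.45% to 11.4% in the other 5 libraries.

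**Figure D4:**
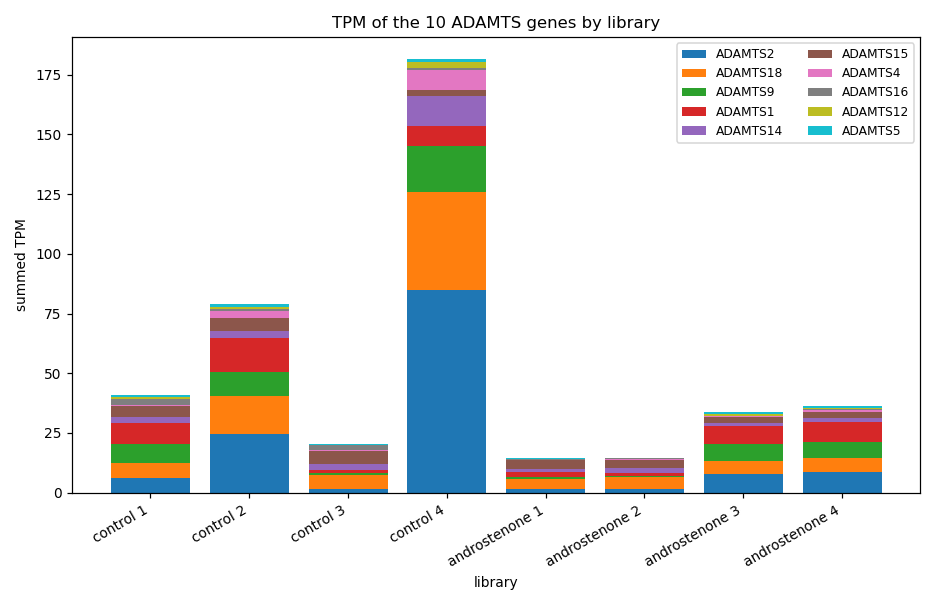
Deposited TPM of the 10 members stacked by library, on a linear axis from 0. Control 4 reaches 182 TPM, mostly ADAMTS2 and ADAMTS18, while control 3, androstenone 1 and androstenone 2 stay between 14.3 and 20.2 TPM, and ADAMTS16 is a thin band in each library.

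Substrates, relatives and regulators of the family were described from 6 lists, of which 51 of 55 genes were tested with edgeR. Past the cutoff, 14 were lower and 1 was higher, against 4.38% and 2.04% of all genes tested, and 3 were past it in all without control 4, 9 without androstenone 1, 8 without androstenone 2 and 23 without control 3. In that order 3.71%, 2.66%, 2.75% and 6.89% of all genes tested were lower in these fits. The genes higher numbered 263, 302, 297 and 951, against 434 with all libraries. The fibrillar procollagens, substrates of ADAMTS2, ADAMTS3 and ADAMTS14, had 6 of 9 lower, led by COL1A1 (-4.36, SE 1.40, adjusted p = 0.409), COL1A2 (-4.35, SE 1.47, adjusted p = 0.416) and COL11A2 (-4.63, SE 1.58, adjusted p = 0.416) as log2 fold changes from edgeR. Without control 4 these were -1.64, -1.44 and -1.26. The proteoglycans and link proteins had 3 of 7 lower, namely ACAN, the aggrecan core protein (-5.60, SE 1.60), HAPLN1, a hyaluronan link protein (-4.42, SE 1.29), and VCAN, the versican core protein (-3.13, SE 1.17). Without control 4 ACAN was at -4.28, HAPLN1 at -2.64 and VCAN at -1.41. The summed fibrillar procollagens were 346709 CPM in control 4, 37417 in control 2 and 1850 to 8475 CPM in the other 6 libraries, so the libraries highest in ADAMTS2, ADAMTS4 and ADAMTS18 were also those highest in procollagen transcripts. The part of these differences between libraries in the members' values was not tested.

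Glycoprotein substrates and partners had 2 of 7 lower, FN1 (fibronectin, -2.89, SE 1.17) and COMP (cartilage oligomeric matrix protein, -3.08, SE 1.31). The ADAMTS-like proteins, which lack the protease domain, had 1 of 7 lower, ADAMTSL4 (-1.41, SE 0.56). Of the inhibition, activation and clearance genes 0 of 7 were past the cutoff with edgeR's quasi-likelihood test. TIMP3 was at 406, 500, 137 and 421 CPM in control 1 to control 4 and at 58.4, 19.0, 530 and 357 CPM in androstenone 1 to androstenone 4, with a log2 fold change of -0.60 (SE 0.90). Its low libraries were those in which ADAMTS1, ADAMTS5 and ADAMTS9 were low. The matrix metalloproteases, a separate family of matrix enzymes, had 2 of 14 lower, MMP16 (-3.91, SE 1.28) and MMP9 (-3.50, SE 1.41), and 1 higher. Without control 4 MMP16 was at -1.63 and MMP9 at -0.52. The higher gene was MMP7, the epithelial matrilysin, at 11.7, 11.2, 27.8 and 11.2 CPM in control 1 to control 4 and at 59.3, 105, 20.8 and 27.7 CPM in androstenone 1 to androstenone 4. The groups overlapped through control 3, and its log2 fold change was 1.77 (SE 0.56, adjusted p = 0.405 with edgeR).

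Markers of cells that the dissected tissue could hold are given beside the members. Of 61 genes tested in 9 lists, 22 were past the cutoff and lower and 0 were higher (4.38% and 2.04% of all genes tested), compared with 5 past it without control 4, 10 without androstenone 1, 14 without androstenone 2, 10 without androstenone 3 and 9 without androstenone 4. In that order 3.71%, 2.66%, 2.75%, 3.14% and 3.87% of all genes tested were lower in these fits. The 22 were 10 of 10 osteoblast and bone markers, 5 of 6 osteoclast markers, 5 of 7 cartilage markers and 2 of 7 fibroblast markers. No endothelial, mural cell, olfactory neuron, ciliated cell or nasal gland marker was past it with edgeR's quasi-likelihood test. The summed cartilage markers were 82.2, 101, 26.2 and 780 CPM in control 1 to control 4 and 13.9 to 46.9 CPM in the androstenone libraries. The summed bone markers were 375, 661, 864 and 23562 CPM in control 1 to control 4 and 220 to 915 CPM in the androstenone libraries. The part of bone in the ADAMTS16 level was not tested. The summed fibroblast markers were 210, 259 and 168 CPM in control 3, androstenone 1 and androstenone 2 against 1102 to 6891 CPM in the other 5 libraries, and the mural cell markers were 103, 104 and 58.1 CPM there against 375 to 1105 CPM. These were the libraries low in ADAMTS1, ADAMTS2, ADAMTS5, ADAMTS9 and ADAMTS12, and the part of cell makeup in those levels was not tested.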

How the data were processed

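RNA-seq libraries of 4 control and 4 androstenone OE samples were analysed. The authors filtered reads (fastp 0.23.1) and ran Kallisto 0.48.0 against Sscrofa11.1, Ensembl release 108. The authors deposited an estimated count per gene and library, not normalized, and a TPM value, scaled for transcript length and library total. Estimated counts were rounded, and 21318 genes with 1 count or more in total were fitted in edgeR 4.0.16 under R 4.3.3, with TMM, the quasi-likelihood test and the condition alone as a term. The cutoff of the study's methods was used, with p adjusted by Benjamini-Hochberg over all genes tested. The standard error is the log2 fold change divided by the square root of F.

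The members, gene lists and cutoff were chosen with earlier results of these data known. Named were all members, TIMP3, in each other list up to 3 genes of smallest p past the cutoff and the gene of most CPM, and the 5 genes nearest to ADAMTS16. Positions came from RefSeq on Sscrofa11.1. VWF, TIMP2, LRP1, SDC4, COL9A2, OMP, CNGB1, AZGP1 and DMBT1 matched no identifier.

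Alternatives were the likelihood ratio and exact tests, DESeq2 1.42.0, limma 3.58.1 voom, RLE, library size only, 3 filters, unrounded counts, a replicate block, limma on TPM with a pseudocount of 0.1 or 1 before taking log2, and each library left out. Leaving out control 1 and control 4 together was added later, with the results in view. Simulated data were used to test the edgeR fit. Each of the 12 pairs of libraries within a group differed by more than sampling noise.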

Additional observations from a re-analysis of the deposited data

Results flagged for a closer look

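In 21 groups of 4 libraries, 19.4% of those examined, the highest or lowest library stood far from the other 3 by Dixon's test, and in 17 of these it was control 4. For independent and normally distributed values about 1 in 20 groups would be set apart. The groups here share the same 8 libraries, and their genes were partly named for passing the cutoff. No excess over chance is therefore read from this share. Among the members this held for ADAMTS14, at 39.2 CPM in control 4. Of substrates and other matrix genes it held in control 4 for COL1A1 (145059 CPM), COL1A2 (156373 CPM), COL11A2 (1321 CPM), COMP (12.02 CPM), MMP16 (40.6 CPM), MMP9 (1514 CPM) and MMP13 (6361 CPM). Of bone and osteoclast markers it held there for SOST (48.1 CPM), MEPE (5.77 CPM), SPP1 (11738 CPM), CALCR (25.9 CPM), ACP5 (2681 CPM), DCSTAMP (18.1 CPM) and CTSK (4499 CPM). CHAD, a cartilage marker, stood at 734 CPM and DPT, a fibroblast marker, at 81.7 CPM in control 4.

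In other libraries it held for COL11A2 in androstenone 2 (40.0 CPM), MMP7 in control 3 (27.8 CPM), COL9A1 in androstenone 3 (0.344 CPM) and NOS2 in control 1 (10.5 CPM). Whether bone or cartilage in the sampled tissue had a part in the control 4 values was not tested.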

How the results depend on the processing

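ADAMTS20 was past the cutoff in 22 of 23 settings, with log2(TPM + 1) the exception, where it had a log2 fold change of -0.54. The same counts held for ADAMTS16 (-0.94 with log2(TPM + 1)), but that gene was selected on this contrast and its calls are a description. ADAMTS20 was named for its small p in this contrast, and the settings refit the same libraries. Its calls are therefore a description too. The members past the cutoff numbered 1 with limma voom, 2 with log2(TPM + 0.1), 0 with log2(TPM + 1), 1 with the replicate number as a block and 1 without control 1 and control 4, against 4. In that order the other ADAMTS proteases numbered 2, 1, 0, 1 and 2 against 4, the substrates and regulators 3, 5, 4, 1 and 5 against 15 in either direction, and the cell type markers 4, 4, 2, 2 and 7 against 22. Calls over the whole table fell too. Of all genes tested, 2.82%, 2.00%, 0.793%, 1.41% and 3.18% were lower in these settings, against 4.38%. The genes higher numbered 376, 300, 152, 282 and 206, against 434. DESeq2 gave 12 cell type markers, with no p for 12 others, where 4.84% of all genes tested were lower. It gave no p for ADAMTS14 and for 7 substrates and regulators. The members past the cutoff with DESeq2 were ADAMTS2, ADAMTS4, ADAMTS16 and ADAMTS18. With each library left out, the counts ran from 1 to 5 for members, 1 to 5 for other ADAMTS proteases, 3 to 23 for substrates, 5 to 25 for cell type markers, and 2 to 3 for members whose groups did not overlap, and 12 to 20 of the 20 places in the TPM order were kept. Of all genes tested, 2.66% to 6.89% were lower at the cutoff in these fits. The share not overlapping, with androstenone lower, ran from 3.25% to 6.76%. The cause was not tested.

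Same-numbered libraries of the groups did not deviate together (correlations of -0.04, -0.50, -0.60 and 0.17), so the numbers were not taken to pair them. Of the 1175 values of single genes under an alternative, 23 changed sign. ANO2 had log2 fold changes of 0.0093 with library size only and 0.059 without control 1 and control 4, and -0.60 to 0.28 with each library left out. PECAM1 had 0.12, 0.41 and -0.38 to 0.38 in the same settings, and PIGR had -0.0067, -0.56 and -0.39 to 0.55, with -0.12 on both TPM scales. MMP13 had 0.63 without control 1 and control 4 and -4.02 to 0.55 with each library left out, and SPP1 had -3.71 to 0.088. Levels in control 1 are limited by its low total of deposited counts, where 3 counts are 0.616 CPM, against at most 0.0451 CPM elsewhere. The paper lists about as many clean reads for control 1 as for the other libraries. The reason for its low count total was not tested.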
